A study of Papio anubis with 12 samples.

Results

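The genes described here build or regulate the axoneme, the microtubule core of motile cilia and sperm tails. They are DRC1, SPAG6, SPMIP5, FOXJ1, DNAI1, RSPH1, TEKT1, CCDC39, HYDIN and SPAG16, and they were measured on 12 Affymetrix HG-U133 Plus 2.0 arrays, each with RNA from the precentral gyrus of another baboon neonate. The genes were chosen by values of these same arrays, because DRC1, SPAG6 and SPMIP5 were lower with formulas that hold long chain polyunsaturated fatty acids (LCPUFA). A probe set was taken where the annotation of the platform gives it exactly 1 symbol, equal to one of these genes. This gave 13 probe sets of 9 genes, out of 41091 probe sets with 1 symbol and 54613 tested. CCDC39, which sets the repeat length of the axoneme, has only a probe set annotated with a further symbol, so it has no value here. In all, 6 probe sets name one of the genes beside another symbol, and they were not used.

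In a motile cilium, doublet microtubules surround a central pair, and dynein arms slide the doublets past each other. Nexin links hold the doublets together, and radial spokes pass signals between the central pair and the arms. In the brain, ependymal cells that line the ventricles carry motile cilia, while neurons and astrocytes carry a single primary cilium that lacks dynein arms. The precentral gyrus is cortical tissue and does not border a ventricle.

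All animals were fed formula for 12 weeks. Formula C held no docosahexaenoic acid (DHA) or arachidonic acid (ARA), formula L held 0.33% DHA with 0.67% ARA, and formula L3 held 1.00% DHA with 0.67% ARA. There were 4 animals per formula, aged 83 to 87 days, of which 2 in C, 1 in L and 0 in L3 were male. The probes of the arrays were designed on human transcripts, and how well each matches the baboon transcript was not examined. The tissue is a mixture of cells, so fewer cells of a type and less RNA per cell cannot be told apart.

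Values are the deposited MAS5 signals, a brightness on a linear scale. Log2 differences come from limma on log2 of the signal plus 16, quantile normalized, and are given with their standard error (SE). The added 16 makes differences of low signals smaller. Counts of probe sets or genes whose groups lay wholly above or below each other use these normalized log2 values. L/C stands for L minus C on this scale, so that positive values are higher in L, and likewise for L3/C and L3/L. The summed signals of 8 neuronal markers were 73369 to 96764 in C, 60154 to 98021 in L and 63636 to 87602 in L3. These sums cannot tell the precentral gyrus from other brain tissue that holds neurons. RNA quality differed between arrays of each formula. The log2 ratio of the 3′ to the 5′ ACTB control was −0.15 to 6.18 over all arrays, with the highest value of each formula on replicate 1 (3.59 for C, 3.46 for L, 6.18 for L3). The mean log2 signal of the spike-in controls was 11.14 to 12.71 in C, 10.77 to 13.04 in L, 12.98 to 13.72 on L3 replicates 1 to 3 and 10.83 on L3 replicate 4.

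DRC1 codes for a scaffold protein of the nexin link, the regulatory complex that holds dynein activity in check. In L its signals were 115.9, 44.2, 42.6 and 51.9, against 364.2, 210.6, 1012.5 and 306.1 in C. All 4 L arrays lay below all 4 C arrays. The log2 difference in L/C was −2.31 (SE 0.57), a 4.95-fold lower value in L on this scale. DRC1 has 1 probe set here (231133_at). It lay below the median of the array on 6 arrays, all 4 L arrays among them, and below the lower quartile on 1. In L3 the signals were 70.8, 354.0, 294.1 and 84.4, so that replicates 2 and 3 lay in the range of C and replicates 1 and 4 in the range of L. The L3/C difference was −1.20 (SE 0.57), with overlapping groups. In L3/L it was 1.11 (SE 0.57, 95% interval −0.09 to 2.31). The L/C value rests on the contrast by which DRC1 was chosen, and L3/L shares the L arrays, so none of these values was tested.

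SPMIP5 is named as a sperm microtubule inner protein, one of the proteins bound to the inside of doublet microtubules. Its signals in L3 were 99.4, 58.2, 61.6 and 93.5, against 427.4, 446.5, 283.9 and 288.0 in C. Every L3 array lay below every C array, and the L3/C log2 difference was −2.10 (SE 0.40), a 4.29-fold lower value in L3. In L the signals were 540.2, 413.5, 228.2 and 165.1. They spanned the range of C, and the L/C difference was −0.17 (SE 0.40). The lowest L array was still above the highest L3 array, with an L3/L difference of −1.93 (SE 0.40). The spike-in signal was higher on 3 of the 4 L3 arrays than on any C array. With the spike-in signal as a covariate, the SPMIP5 difference was −2.18 in L3/C and −2.04 in L3/L. The part of the spike-in signal in the SPMIP5 values was not tested. The mean of DRC1 was lowest in L and that of SPMIP5 in L3. For DRC1, the L and L3 arrays overlapped, with an L3/L difference of 1.11 (SE 0.57). SPMIP5, like DRC1, was chosen for being lower on these same arrays. Whether the profiles of DRC1 and SPMIP5 over the formulas differ was therefore not tested.

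SPAG6, a protein of the central pair, has 2 probe sets. The one with the higher mean (210032_s_at) gave 322.1, 443.8, 208.9 and 219.1 in C, then 72.2, 80.1, 303.3 and 228.5 in L, and 115.2, 310.9, 90.5 and 126.3 in L3. In L, replicates 1 and 2 were below all C arrays and replicates 3 and 4 lay within the range of C. In L3, replicate 2 lay within C and the other 3 arrays below it. The log2 differences were −0.93 (SE 0.52) for L/C and −1.08 (SE 0.52) for L3/C, and both formulas overlapped C. The other probe set (210033_s_at) differed by −0.28 (SE 0.43) for L/C and −0.65 (SE 0.43) for L3/C. Its signals were 154.6, 332.8, 187.4 and 198.5 in C, then 227.1, 181.8, 140.3 and 136.5 in L, and 180.9, 87.3, 108.4 and 244.0 in L3. Both probe sets were thus lower on average with either LCPUFA formula, and SPAG6 was chosen for this.

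**Figure D1:**
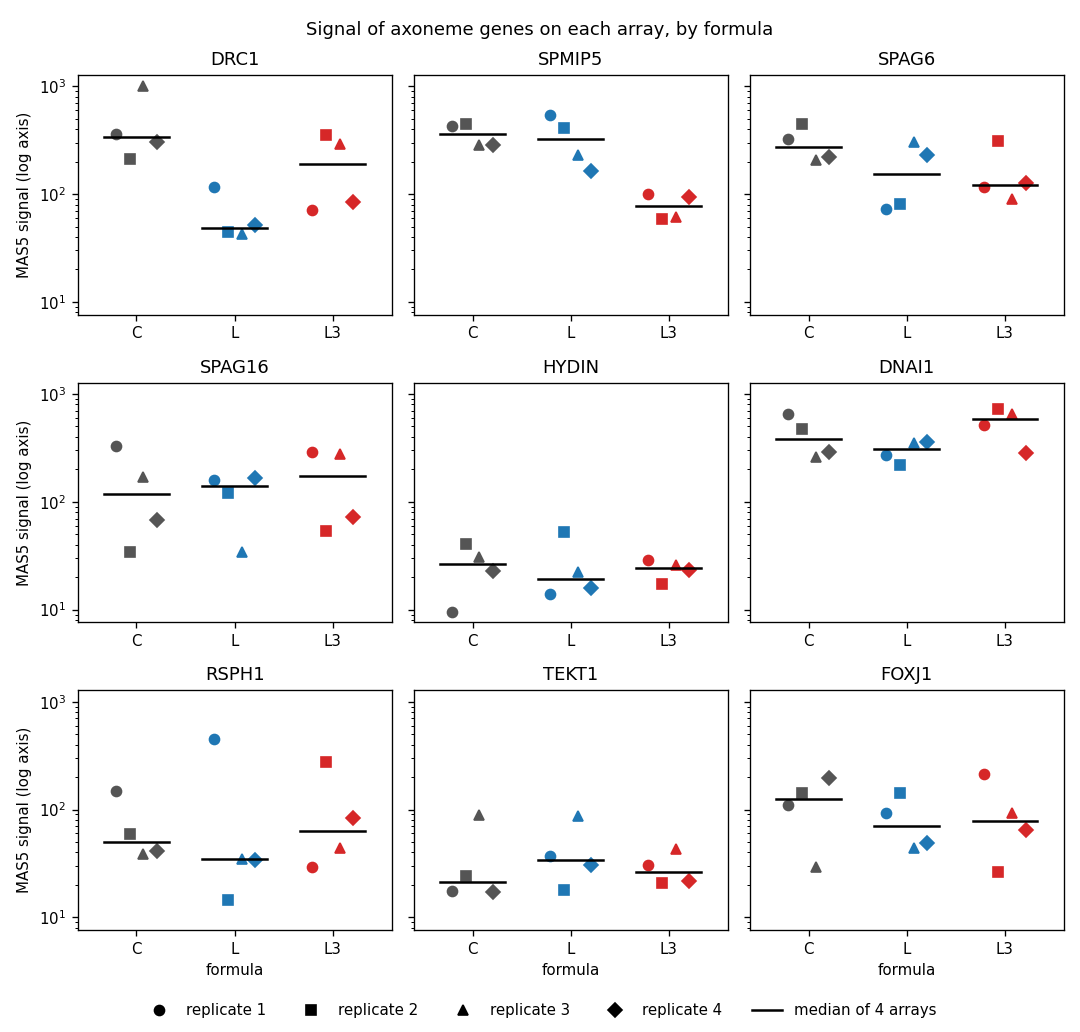
MAS5 signal (log axis) of 9 axoneme genes on each of the 12 arrays by formula, with the brightest probe set of each gene. Marker shapes give the replicate and lines the median of 4 arrays. All 4 L arrays lie below all 4 C arrays for DRC1, all 4 L3 arrays lie below the L and C arrays for SPMIP5, and the other genes overlap.

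Values of the remaining central pair genes overlapped between the formulas. HYDIN, a large protein of the central pair, had signals of 9.6 to 40.5 in C, 14.0 to 52.3 in L and 17.4 to 29.0 in L3. Its probe set lay below the median of the array on 12 arrays and below the lower quartile on 11. The log2 differences were 0.03 (SE 0.36) for L/C and −0.09 (SE 0.36) for L3/C. SPAG16, a further central pair protein, has 3 probe sets. For the one with the highest mean (219109_at) the signals were 327.8, 34.1, 170.2 and 67.7 in C, 159.0, 120.6, 34.1 and 166.8 in L, and 289.7, 53.2, 278.1 and 72.0 in L3. Within each formula the spread exceeded the difference between formulas, which was −0.04 (SE 0.70) for L/C and 0.16 (SE 0.70) for L3/C. The other SPAG16 probe sets differed by 0.05 (1560174_at, SE 0.74) and −0.64 (240898_at, SE 0.56) for L/C, and by 0.65 and −0.72 for L3/C. They thus disagreed in sign in both comparisons.

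DNAI1 is an intermediate chain of the outer dynein arm. Its probe set with the higher mean (233195_at) gave 513.7, 731.9, 648.2 and 281.5 in L3, against 273.9, 221.7, 348.3 and 358.6 in L. In L3, 3 of 4 arrays exceeded all L arrays, and the fourth lay among them. This L3/L difference of 0.82 (SE 0.36, 95% interval 0.05 to 1.59) had an unadjusted p of 0.0386, an adjusted p of 0.891 from limma and a p of 0.0857 in the two-sided exact permutation test. That test compares 4 arrays with 4, and the smallest p it can give is 0.0286. In C the signals were 645.7, 477.6, 261.4 and 287.2, which overlapped both other formulas, with differences of −0.45 (SE 0.36) for L/C and 0.37 (SE 0.36) for L3/C. The other DNAI1 probe set (220125_at) ran the other way in L/C (0.47, SE 0.57) and in L3/L (−0.46, SE 0.57). Its signals were 41.1, 166.2, 95.0 and 68.7 in C, then 189.8, 127.1, 119.1 and 65.7 in L, and 76.2, 36.7, 290.1 and 72.8 in L3.

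RSPH1, a protein of the radial spoke head, was dim on most arrays and bright on single ones. The signals were 147.7, 58.9, 39.1 and 41.2 in C, 452.0, 14.6, 35 and 33.9 in L, and 29.5, 276.8, 44.3 and 83.5 in L3. One array in each of L and L3 thus stood far above the other arrays of its formula. The log2 differences of RSPH1 were 0.04 (SE 0.76) for L/C and 0.18 (SE 0.76) for L3/C. TEKT1, a tektin filament protein inside the doublets, had signals of 17.2 to 88.3 in C, 17.8 to 87.6 in L and 20.8 to 43.3 in L3. Its differences were 0.22 (SE 0.47) for L/C and −0.16 (SE 0.47) for L3/C, and it lay below the median of the array on 12 arrays.

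FOXJ1 codes for the transcription factor that switches on the genes of motile cilia. Its signals were 110.1, 142.2, 29.0 and 195.5 in C, then 93.1, 143.4, 43.6 and 49.1 in L, and 212.7, 26.1, 93.5 and 64.1 in L3. Each formula held arrays with low signals (29.0 in C, 43.6 in L, 26.1 in L3) as well as arrays with high ones (195.5 in C, 143.4 in L, 212.7 in L3). The log2 differences were −0.33 (SE 0.61) for L/C and −0.40 (SE 0.61) for L3/C, smaller than their errors.

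**Figure D2:**
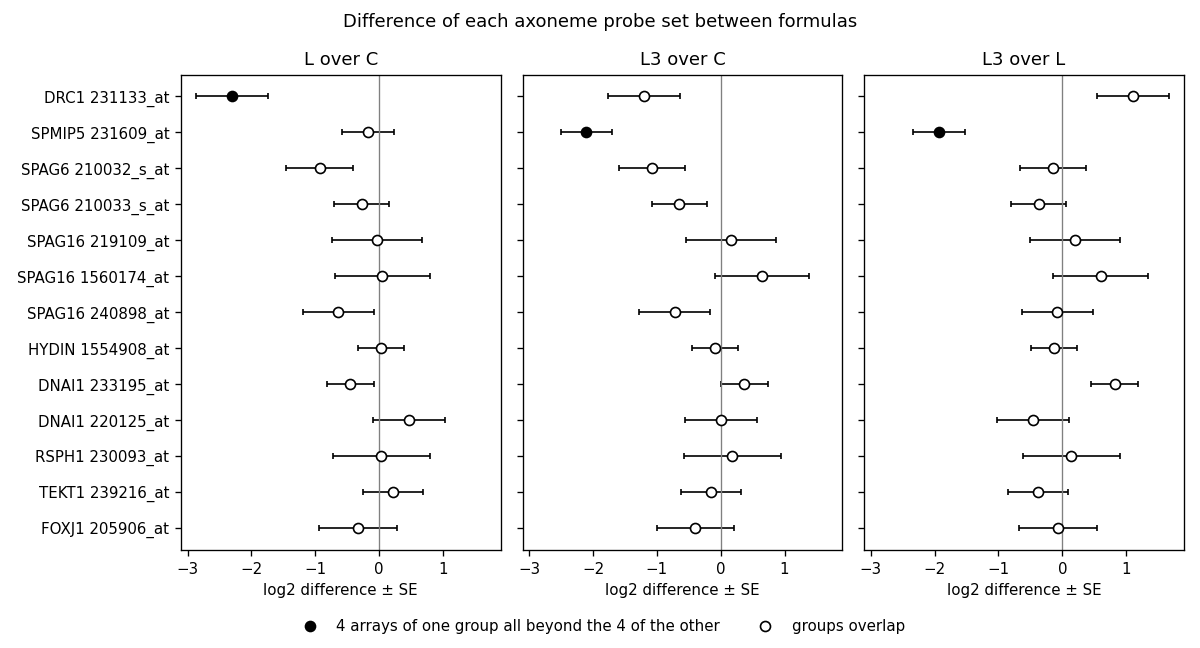
Log2 difference (± SE from limma) of the 13 axoneme probe sets in L over C, L3 over C and L3 over L. Filled points, DRC1 for L/C (−2.31) and SPMIP5 for L3/C (−2.10) and L3/L (−1.93), mark groups that do not overlap.

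Over the 13 probe sets, 5 were higher and 8 lower in each of L/C, L3/C and L3/L. With 1 probe set per gene, 6 of 9 genes were lower for L/C and 6 for L3/C, and the median log2 differences were −0.17 and −0.16, against −0.01 and 0.00 over all probe sets. The median size of the difference was 0.22 for L/C and 0.37 for L3/C for the 9 genes, against 0.28 and 0.32 for all probe sets. The sign of the L3/C median turned with 1 array, since it was 0.054 without C replicate 3, and it was −0.34 without C replicate 1. These counts and medians include DRC1, SPAG6 and SPMIP5, which were chosen for being lower. The 6 other genes have 9 probe sets, of which 5 were higher and 4 lower in both L/C and L3/C. Their medians were 0.03 and 0.01. Of all probe sets, 50.9% were lower in L/C and 50.1% in L3/C. In L/C, 1 of the 13 lay wholly below C (DRC1), where 1.17% of all probe sets did and 0.93% lay wholly above. In L3/C, 1 of 13 lay wholly below C (SPMIP5), where 1.07% of all did and 1.14% lay wholly above. These shares are given as background only, since both contrasts served to choose the genes. At an adjusted p under 0.05 from limma, 0% of all probe sets passed in L/C, 0% in L3/C and 0% in L3/L. At an unadjusted p under 0.05, 1.15% of all were higher and 1.27% lower in L/C, and 2.22% higher and 2.04% lower in L3/C.

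The comparison of the higher with the lower DHA formula did not enter the choice of FOXJ1, DNAI1, RSPH1, TEKT1, HYDIN and SPAG16. Of their 9 probe sets, 4 were higher and 5 lower in L3 than in L, with log2 differences of −0.46 to 0.82. At an unadjusted p under 0.05, 1 was higher (DNAI1, 233195_at) and 0 were lower, where 2.96% of all probe sets were higher and 2.44% lower. For 0 of the 9 did the groups separate, where 1.53% of all probe sets lay wholly above and 1.14% wholly below. The adjusted p of the 9 was 0.891 to 0.992. For FOXJ1, the L3/L difference was −0.07 (SE 0.61, 95% interval −1.36 to 1.22), with an adjusted p of 0.992 from limma and an exact permutation p of 0.943. For RSPH1 it was 0.14 (SE 0.76, 95% interval −1.47 to 1.76). Intervals of this width cover differences of more than 2-fold in either direction.

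Sex was a further comparison that did not serve to choose the genes. In males minus females with formula in the fit, 5 of the 13 probe sets were higher and 8 lower, and 0 had an unadjusted p under 0.05, where 0.829% of all probe sets were higher and 1.15% lower. The largest differences were 1.13 for FOXJ1 (SE 0.61, unadjusted p 0.0853 from limma) and −1.03 for the SPAG16 probe set 1560174_at (SE 0.78). Over all probe sets 2 passed an adjusted p of 0.05 (0.00366%). With 3 males, none of them in L3, sex and formula are partly confounded. DRC1 differed between L and C by −2.37 in females only, and SPMIP5 between L3 and C by −2.13. The females of C were replicates 2 and 3. Both genes were chosen by these contrasts, so the values are a description, and the part of sex in them was not tested.

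No pair of the genes was found to vary together from animal to animal once the formula means were removed. Of 36 pairs of the 9 genes, 16 correlated above 0 and 20 below 0, with a median Pearson r of −0.09 over 12 arrays and a median Spearman rho of −0.06. At an unadjusted p under 0.05 there was 1 pair, HYDIN with RSPH1 (r = −0.75, exact permutation p = 0.011, adjusted p = 0.388; rho = −0.52, p = 0.09, adjusted p = 0.501). Without the 2 arrays farthest from the median of HYDIN its r was −0.81, and both genes were dim. The strongest positive pair was DNAI1 with SPAG6 (r = 0.47, exact permutation p = 0.121, adjusted p = 0.554; rho = 0.41, p = 0.178, adjusted p = 0.623), and its r was 0.81 without the 2 arrays farthest from the median of DNAI1. No pair passed after adjustment, with 0.388 the smallest adjusted p for r and 0.501 for rho. FOXJ1 correlated below 0 with DRC1 (r = −0.64, exact permutation p = 0.065, adjusted p = 0.554; rho = −0.59, p = 0.087, adjusted p = 0.501), and that r was −0.21 without the 2 arrays farthest from the median of DRC1.

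**Figure D3:**
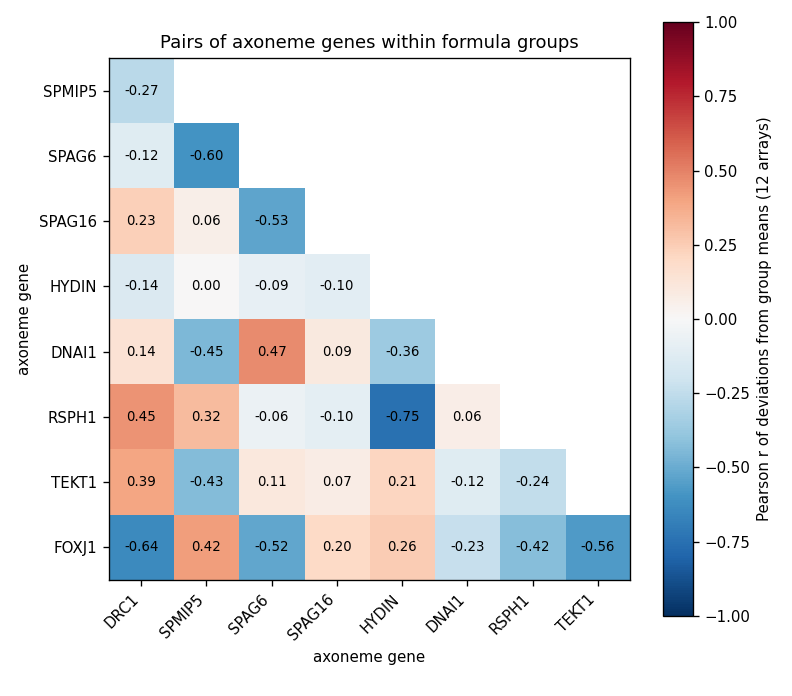
Pearson r between pairs of 9 axoneme genes over 12 arrays, of log2 values minus the mean of each formula. Of 36 pairs, 16 are above 0 and 20 below 0, and the lowest is HYDIN with RSPH1 (−0.75).

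Probe sets of the same gene correlated weakly or below 0. The deviations from the formula means correlated at r = −0.21 for the 2 probe sets of SPAG6, at −0.25 for those of DNAI1 and at −0.41 to 0.02 for the 3 pairs of SPAG16, over 12 arrays. Over the 10523 genes with several probe sets of 1 symbol, the median r was 0.03 and 52.9% of 42435 pairs lay above 0. These correlations are a description, and the probe sets share arrays and labelling.

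The wider motile cilium was covered by 115 other genes in 6 lists, of which 101 were measured with 1 probe set each. In L/C, 44 were higher and 57 lower, with 0 and 2 at an unadjusted p under 0.05 and a median of −0.07, against −0.03 over all genes. In L3/C, 51 were higher and 50 lower, with 1 and 2 at that p and a median of 0.00, against −0.03. In L3/L, 56 were higher and 45 lower, with 1 and 1 at that p and a median of 0.05, against 0.00. None passed an adjusted p of 0.05 from limma. With background shares of 1.15% to 2.96% in either direction, such counts of 0 to 2 genes were not read as a result. In L/C, 0 of the 101 lay wholly above C and 2 wholly below, against 0.93% and 1.17% of all probe sets. In L3/C the counts were 0 and 3, against 1.14% and 1.07%. In L3/L they were 3 above L and 2 below, against 1.53% and 1.14%.

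In the radial spoke, nexin link and ruler list, which covers the nexin link of DRC1 and other parts, 12 of 18 genes were lower for L/C and 11 of 18 for L3/C. Of all probe sets, 50.9% and 50.1% were lower. In L/C, 1 of the 18 lay wholly below C, and in L3/C 2 did, where 1.17% and 1.07% of all probe sets did. CCDC40, which forms the axonemal ruler with CCDC39, had signals of 69.6, 139.4, 83.4 and 161.7 in L, against 326.4, 227.1, 216.5 and 202.7 in C. All L arrays lay below all C arrays, with a log2 difference of −1.01 (SE 0.44, unadjusted p 0.0364 and adjusted p 1 from limma). In L3 CCDC40 had 162.0, 107.1, 194.8 and 165.0, also below every C array, with an L3/C difference of −0.73 (SE 0.44, adjusted p 0.999 from limma). DRC3, a further subunit of the nexin link, differed by −1.41 (SE 0.60) for L3/C (unadjusted p 0.0313, adjusted p 0.999 from limma). Its signals of 20.1 to 177.3 in L3 and 155.6 to 266.2 in C overlapped, and the groups separated only in normalized log2 values.

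In the central pair list, 8 of 13 genes were higher in L/C. The number for L3/C was also 8, though MYCBPAP and others changed sign between the comparisons. MYCBPAP had signals of 117.7, 126.5, 27.1 and 167.8 in L3, against 295.9, 380.4, 238.9 and 237.4 in C. The L arrays gave 404.9, 256.3, 299.0 and 252.8, so that all 4 L3 arrays lay below the C and the L arrays. In L3/C, 0 of the 13 genes lay wholly above and 1 wholly below, against 1.14% and 1.07% of all probe sets. In L3/L it was 1 above (SPEF1, 0.49, SE 0.30) and 1 below (MYCBPAP), against 1.53% and 1.14%. MYCBPAP was named for its small p among the list genes. The log2 difference of MYCBPAP was −1.55 (SE 0.44) for L3/C, with an unadjusted p of 0.00298 and an adjusted p of 0.999 from limma. In L3/L it was −1.62 (SE 0.44), with an unadjusted p of 0.00209 and an adjusted p of 0.891 from limma. KIF9, a kinesin of the central pair, differed by −1.0 (SE 0.49) for L/C, with 72.6 to 206.6 in L and 261.8 to 316.6 in C (adjusted p 1 from limma).

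In the dynein arm and docking list, 16 of 23 genes were lower in L/C, and 11 were higher and 12 lower in L3/C. DNAH1, a heavy chain of an inner arm, differed by −1.16 for L/C (SE 0.51, unadjusted p 0.0387 and adjusted p 1 from limma), and its groups overlapped. DNAI3, an intermediate chain of an inner arm, was dim in L (8.9 to 31.9) and differed by 1.20 for L3/L (SE 0.49, adjusted p 0.891 from limma), with signals of 11.5 to 140.7 in L3. Of 27 microtubule doublet proteins, the class of SPMIP5 and TEKT1, 14 were lower for L/C and 13 for L3/C, with 0 at an unadjusted p under 0.05 for L/C, in L3/C and in L3/L. Of 14 dynein assembly factors, SPAG1 differed by 1.30 for L3/C (SE 0.57, unadjusted p 0.0362 and adjusted p 0.999 from limma). Of 6 measured regulators beside FOXJ1, 2 were higher and 4 lower in L/C, 4 higher and 2 lower in L3/C, and 3 higher and 3 lower in L3/L, with 0 at an unadjusted p under 0.05 in any of these.

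**Figure D4:**
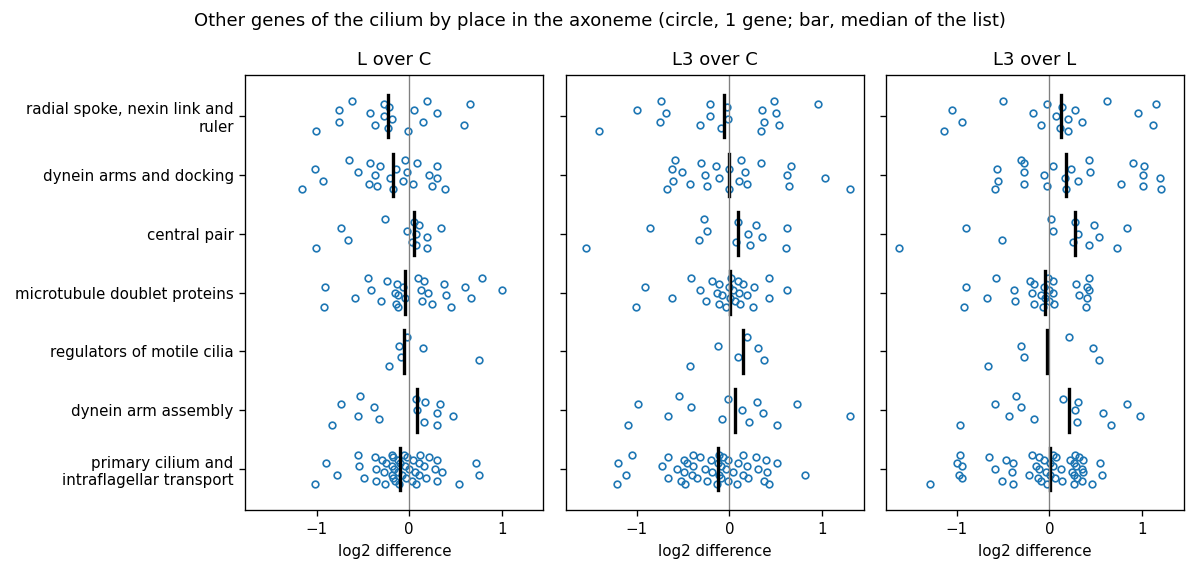
Log2 difference of other cilium genes (circles, 1 probe set per gene) in L over C, L3 over C and L3 over L, by list, with the median of each list as a bar. Medians of the 6 motile cilium lists lie between −0.23 and 0.28, and MYCBPAP (−1.55 for L3/C) is the lowest central pair gene there.

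Genes of the primary cilium and of intraflagellar transport, which neurons and astrocytes use, were measured for 47 of 50. In L3/C, 32 were lower and 15 higher, with a median of −0.13 against −0.03 over all genes, and 3 lower and 0 higher at an unadjusted p under 0.05, where 2.04% of all probe sets were lower and 2.22% higher. These were KIFAP3 (−0.52, SE 0.17), a subunit of the anterograde kinesin motor, and IFT20 (−1.20, SE 0.41) and IFT74 (−1.05, SE 0.49), subunits of the transport complex. Each had an adjusted p of 0.999 from limma. In L/C, 30 were lower and 17 higher, with 0 at that p. In L3/L, 23 were lower and 24 higher, with 2 lower (KIFAP3 and IFT27) and 0 higher at that p, where 2.44% of all probe sets were lower.

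Markers of other cell types were set beside these values. None of them passed an adjusted p of 0.05 from limma. Of all probe sets, 50.9% were lower in L/C, 50.1% in L3/C and 49.5% in L3/L. The 8 ependymal markers, of which FOXJ1, DNAI1, RSPH1 and SPAG6 are axoneme genes themselves, summed to 3780 to 8443 in C, 3866 to 8712 in L and 4759 to 10934 in L3. VIM, an intermediate filament protein that astrocytes also express, made up much of these sums, with signals of 1686.4 to 5616.5 in C, 1928.6 to 6467.8 in L and 2775.3 to 8595.8 in L3. CD24 was lower in L3, with 437.9 to 558.8, than in C, with 724.8 to 1554.2 (log2 difference −1.02, SE 0.28, adjusted p 0.999 from limma). VIM differed by 1.04 (SE 0.33, adjusted p 0.999 from limma) in the same comparison. Of the 8 ependymal markers, 4 were higher and 4 lower in L3/C. Which cells gave the CD24 signal was not examined. The 9 choroid plexus markers summed to 1779 to 2649 in C, 1770 to 1926 in L and 1990 to 4177 in L3. Of these markers, 9 of 9 were higher in L3 than in L. TTR, the transport protein secreted by the choroid plexus, had 88.8, 1282.1, 1001.4 and 49.8 in L3, against 66.0, 20.7, 37.2 and 21.1 in L. L3 replicates 2 and 3, where TTR was highest, had the higher DRC1 signals of L3 (354.0 and 294.1). They also had the highest spike-in signals of all arrays (13.43 and 13.72). In C, TTR was 139.5, 524.5, 47.1 and 45.8. The C array highest in DRC1 (replicate 3) was not high in TTR, and the one highest in TTR (replicate 2) had the lowest DRC1 signal of C (210.6). Whether TTR and DRC1 are linked was not tested. The 5 meningeal markers were higher on average in L and in L3 than in C, with sums of 2057 to 6683 in C, 2870 to 10854 in L and 3303 to 15323 in L3. The 5 microglia markers summed to 1472 to 3631 in C, 1722 to 5989 in L and 1552 to 3381 in L3. In L/C 5 of 5 were higher, and in L3/L 5 of 5 were lower. C1QB, a complement component, was higher on all L arrays than on all C arrays (log2 difference 2.00, SE 0.60, unadjusted p 0.00394 and adjusted p 1 from limma). The 5 measured oligodendrocyte markers were all lower in L3/C, with sums of 5920 to 15192 in C, 6280 to 15256 in L and 4758 to 12556 in L3, and 0 of them had an unadjusted p under 0.05. Of 6 astrocyte markers, 4 were higher for L/C and 5 for L3/C. Of 4 endothelial markers, 3 were higher for L/C and 2 for L3/C. The 6 sperm and testis markers summed to 1119 to 2036 in C, 942 to 2206 in L and 1178 to 3004 in L3. None of the markers was at 0 on all arrays, and no detection calls were used here. The part of these markers in the axoneme values was not tested.

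Probe sets were ranked by the correlation with the mean standardized deviation of the 9 genes, over 12 arrays and 41078 candidates. The 9 genes were not found to vary together, so this mean is not a profile that they share. The first 5 were DEPDC1B (r = 0.95), MINK1 (0.93), YME1L1 (0.91), LRFN5 (0.91) and OTUD1 (0.90). They are the top of a long ranking over few arrays, so values of this size are a description only.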

How the data were processed

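Total RNA from the precentral gyrus was hybridized to 12 arrays, 1 per animal. The authors deposited 1 table of MAS5 signals, an intensity per probe set on a linear scale, made with GCOS per the labels. Each array had a trimmed mean of 250.01 to 250.02 when 2% of values were trimmed at either end. The methods name RMA values, which these are not.

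In the re-analysis, 62 control probe sets were left out. The log2 of the signal plus 16 was quantile normalized, and limma 3.58.1 in R 4.3.3 fitted the mean of each formula (9 residual degrees of freedom, variance trend). Benjamini-Hochberg adjustment covered all 54613 probe sets. The SE of log2 differences had a median of 0.51. Precision is limited by 4 arrays per group. Whether the spread between animals also holds technical spread is not given in the sources used here.

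Names came from an annotation of the platform, which gives 41091 probe sets 1 symbol, 1801 several and 11721 none. For lists, 1 probe set per gene was used, the one with the highest mean. The plan named 10 genes; 9 had a usable probe set, which leaves 36 pairs. Pairs were tested by exact permutation of arrays within formulas (13824 orders, two-sided). The fits were tested on simulated data.

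The axoneme genes and all lists were chosen with earlier results of these data known. Named list genes were those with up to the 3 smallest p in each list and comparison. FOXJ1, DNAI1, RSPH1, TEKT1, HYDIN and SPAG16 were tested in L3/L, and all in males minus females. No p is given for the axoneme genes in L/C or L3/C, nor for DRC1, SPAG6 and SPMIP5 in L3/L, although the plan had foreseen the last. Alternatives were no further normalization, centring on the median, a pseudocount of 1, brighter probe sets, no variance trend, the 8 arrays compared, sex as a covariate, females only, a replicate block, and each array left out in turn. The ACTB ratio and the spike-in signal as covariates were added after seeing the data. Software for correlations and figures was Python 3.11.15 with numpy 2.4.6, pandas 2.3.3 and scipy.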

Additional observations from a re-analysis of the deposited data

Results flagged for a closer look

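In 3 of 39 sets of 4 arrays (13 probe sets in 3 formulas), 1 array stood apart from the other 3 in normalized log2 values, the gap to its neighbour exceeding Dixon's critical share of the range. Chance gives about 1 in 20. RSPH1 was highest on C replicate 1, with a signal of 147.7 against 39.1 to 58.9 on the other C arrays. TEKT1 was highest on C replicate 3 (88.3), against 17.2 to 24.4 on the other C arrays. HYDIN was lowest on L3 replicate 2 (17.4), against 23.1 to 29.0 on the other L3 arrays. The causes were not tested.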

How the results depend on the processing

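Over 21 alternatives, DRC1 was at −2.64 to −1.91 in L/C and SPMIP5 at −2.32 to −2.0 in L3/C. These genes were chosen by these values, and groups that do not overlap cannot turn with 1 array left out, so the ranges are a description. Some alternatives cannot move a difference in this balanced design. These are the fit of only the 8 arrays compared, the replicate block, and leaving out an array of the formula not compared. Of the 9 differences tested in L3/L, 5 changed sign in some alternative. FOXJ1 was at 0.081 with no further normalization, 0.21 with a sex covariate and 0.27 in females only, and between −0.46 and 0.31 with each array left out in turn. HYDIN was at 0.19 in females only and −0.36 to 0.19 with each array left out. RSPH1 was at −0.28 in females only, −0.071 with the ACTB ratio and −0.29 with the spike-in signal as a covariate, and −0.38 to 0.95 with each array left out. The SPAG16 probe set 219109_at was at −0.15 with the ACTB ratio and −0.23 to 0.57 with each array left out, and 240898_at at 0.056 with no further normalization and −0.64 to 0.20. These 5 differences were smaller than their SE, and the cause of each change was not tested. The median over the genes in females only was −0.43 in L3/C and 0.19 in L3/L. With each array left out it was −0.34 to 0.054 in L3/C and −0.12 to 0.19 in L3/L, with 0.19 without L replicate 2. The median r of the 36 pairs was −0.14 to −0.04 with each array left out.

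By the methods' rule (analysis of variance and a pairwise test, both with unadjusted p), run here on MAS5 signals and not on RMA values, 706 probe sets passed in L/C and 1056 in L3/C. Limma gave 1324 and 2329 at an unadjusted p under 0.05, and 0 and 0 after adjustment. With L3 replicate 4 left out, 4314 instead of 2329 unadjusted p values were under 0.05 for L3/C and 5435 instead of 2949 for L3/L. Of males minus females, 2 probe sets passed, against 0 with a pseudocount of 1, 0 with no variance trend and 0 to 2 with each array left out. Arrays of the same replicate number correlated at −0.09 to 0.33 in their deviations, not all over 0.1, so the numbers were not taken as pairs. All pairs of replicate 1 (0.14 to 0.19) and of replicate 4 (0.26 to 0.33) were over 0.1. Arrays of different numbers correlated at −0.32 to 0.27, the highest being C replicate 2 with L replicate 1. The ACTB ratio was highest on replicate 1 and lowest on replicate 4 of each formula, and a shared batch of these arrays was not tested. With a replicate block, 0 passed in L/C, L3/C and L3/L and 1 in males minus females, where 2494 instead of 1082 had an unadjusted p under 0.05. Brightness over background is not known for these signals, and with 4 arrays per formula the SE of the axoneme probe sets was 0.36 to 0.76.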
